A study of Mus musculus with 6 samples.

Results

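Cycling cardiomyocytes were followed in a single-cell library of mouse cardiomyocytes taken from co-culture with cardiac fibroblasts. A nanowell was a member if it carried 1 of 8 well names (AFNCM1, AFNCM2, AFNCM3, NFNCM1, NFNCM2, NFNCM3, NCM0_1, NCM0_2), held at least 100 unique molecular identifiers (UMIs) of Tnnt2, held over 5 times as many UMIs of Tnnt2, Tnni3, Myh6, Actc1 and Tnnc1 as of the collagens Col1a1, Col1a2 and Col3a1, and had at least 3 of 8 cycling markers detected. Those markers were Mki67, Top2a, Cdk1, Ccnb1, Ccna2, Cenpf, Prc1 and Kif11. The rule was met by 84 wells. They were part of 738 wells that met every condition except the one on markers (eligible wells), of 1409 wells with these names, and of 2482 wells with counts in both single-cell libraries. The reference class was the 339 eligible wells in which none of the 8 markers was detected (no-marker wells), and the other 315 eligible wells had 1 or 2 markers.

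The study co-cultured immature cardiomyocytes (imCMs) from the left ventricle of newborn C57BL/6 mice (C57BL/6J in the study's methods) with cardiac fibroblasts from adult hearts (AF) or from neonatal hearts (NF), to ask how the age of the fibroblasts bears on imCM gene expression. Per the study's methods, more fibroblasts per imCM were plated with AF than with NF, the fibroblasts had been passaged, imCMs and fibroblasts carried different dyes, and cells with a single dye were sorted before sequencing. Bulk RNA was sequenced from 2 libraries of imCMs with NF (imCM-NF) and 2 with AF (imCM-AF). Single cells were sequenced on a nanowell chip (ICELL8) as 1 library of cardiomyocytes and 1 of fibroblasts. AFNCM and NFNCM wells hold cardiomyocytes from the AF and NF co-cultures, as the letters in the well names read. What NCM0 stands for is not stated in the sources used here, so its wells are given as values only. All groups came from this strain, and no allele or drug is named for these samples. Whether the number in a well name marks a separate culture is not stated, so a p-value over well names measures only the spread between wells of 1 chip, which may be technical.

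Mouse cardiomyocytes divide in the fetus and leave the cell cycle in the first days after birth, often after a last round of DNA synthesis without cytokinesis, so that many become binucleate. Genes of DNA synthesis are switched on by E2F factors at the G1/S transition, and genes of G2 and mitosis later by the MuvB core with B-Myb and FoxM1. Promoters of the late genes often carry a cell cycle homology region (CHR) close to CCAAT boxes that bind NF-Y. Fibroblasts in culture divide too and express the same genes, so a cell cycle transcript alone does not name a cell type.

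The promoters of cycling markers are shown because many late cell cycle genes carry these elements, which the rule did not use. The sequences run 5′ to 3′ on the gene's strand from upstream of the transcription start to just past it, over 300 bases, of RefSeq (GRCm38.p6), and capitals mark CHR letters (TTTGAA, or TTTAAA where that is the form present) and CCAAT boxes, searched on both strands, so that TTCAAA and ATTGG are the same elements on the other strand.
Cdk1 promoter, chr10:69352863-69353162, minus strand: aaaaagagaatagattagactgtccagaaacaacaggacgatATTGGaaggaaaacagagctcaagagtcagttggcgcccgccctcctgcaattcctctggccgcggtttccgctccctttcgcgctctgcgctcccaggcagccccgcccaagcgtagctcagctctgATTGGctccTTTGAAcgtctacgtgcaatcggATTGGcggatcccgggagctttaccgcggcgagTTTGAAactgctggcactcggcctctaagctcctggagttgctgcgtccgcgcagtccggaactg
Top2a promoter, chr11:99024140-99024439, minus strand: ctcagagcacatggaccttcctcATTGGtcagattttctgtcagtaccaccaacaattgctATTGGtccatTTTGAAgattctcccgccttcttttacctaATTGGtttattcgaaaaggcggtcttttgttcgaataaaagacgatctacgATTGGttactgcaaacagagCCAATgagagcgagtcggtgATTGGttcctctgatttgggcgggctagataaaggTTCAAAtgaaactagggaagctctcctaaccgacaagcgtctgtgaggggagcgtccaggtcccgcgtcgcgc
Prc1 promoter, chr7:80294201-80294500, plus strand: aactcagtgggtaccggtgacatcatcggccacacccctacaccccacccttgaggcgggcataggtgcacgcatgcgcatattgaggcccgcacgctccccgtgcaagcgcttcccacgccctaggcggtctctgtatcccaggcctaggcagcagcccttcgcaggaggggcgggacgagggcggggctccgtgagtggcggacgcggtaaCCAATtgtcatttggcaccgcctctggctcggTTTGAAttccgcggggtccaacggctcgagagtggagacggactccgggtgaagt
Ccnb1 promoter, chr13:100786437-100786736, minus strand: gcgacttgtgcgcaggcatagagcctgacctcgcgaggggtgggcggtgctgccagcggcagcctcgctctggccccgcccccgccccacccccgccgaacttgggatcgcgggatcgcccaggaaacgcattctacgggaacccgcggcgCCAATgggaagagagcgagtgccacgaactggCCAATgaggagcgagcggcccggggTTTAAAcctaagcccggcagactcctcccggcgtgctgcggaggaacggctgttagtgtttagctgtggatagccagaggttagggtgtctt
Hmmr promoter, chr11:40733388-40733687, minus strand: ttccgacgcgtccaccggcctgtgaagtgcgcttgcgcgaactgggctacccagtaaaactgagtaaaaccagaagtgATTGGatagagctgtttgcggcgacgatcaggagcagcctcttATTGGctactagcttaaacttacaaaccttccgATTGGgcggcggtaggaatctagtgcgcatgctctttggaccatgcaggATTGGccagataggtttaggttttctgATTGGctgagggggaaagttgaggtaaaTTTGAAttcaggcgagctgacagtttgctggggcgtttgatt

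Cdk1, the kinase that drives entry into mitosis, held 2 TTTGAA matches, at -71 and -15 from the start, and 3 CCAAT boxes at -208, -80 and -48. Top2a, which untangles sister chromatids, held 2 CHR matches and 6 CCAAT boxes. Prc1, the bundler of the central spindle, held 1 of each, and Hmmr, a spindle protein that was not in the rule, held a TTTGAA at 8 and 5 CCAAT boxes. Ccnb1, the cyclin partner of Cdk1, held TTTAAA at -42 below 2 CCAAT boxes. RefSeq promoters were matched for 7 of the 8 markers (not Ccna2). TTTGAA was present in 6 of these 7 and CCAAT in 7, against 18.1% and 37.9% of all 27025 promoters of the same length. Among genes of G2 and mitosis outside the rule TTTGAA was present in 19 of 27, and among genes of G1/S and DNA replication in 3 of 24, while CCAAT was present in 18 of 27 and 14 of 24. TTTAAA was present in 13.2% of all promoters and in 2 of the 7. Of the 10 genes named below as higher in cycling wells, Hmmr among them, 8 had a promoter. TTTGAA was present in 3 of these 8 and CCAAT in 5. A match is a description of letters and not of a bound site.

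Detection chose the members, so the values of the 8 markers are given as a description. Summed over the 84 wells, the markers reached 998 CPM, the UMIs of a gene scaled to a common total of UMIs outside mitochondrial genes, with a median of 25 marker UMIs per well and a range of 3 to 773. Prc1 was the most abundant at 234 CPM, ahead of Mki67, the proliferation antigen, at 178.5, Cdk1 at 168, Top2a at 161 and the kinetochore protein Cenpf at 147. Ccna2, a cyclin of S phase and G2, stood at 41.6 CPM, Ccnb1 at 34.95 and the spindle motor Kif11 at 33.0. Cdk1 and Prc1 were each detected in 66 of 84 wells (78.6%), Mki67 in 63, Top2a in 60, Cenpf in 43, Kif11 in 35, Ccnb1 in 33 and Ccna2 in 31. Cdk1 was detected together with Prc1 in 50 wells and with Mki67 in 50 wells, whereas Ccnb1 and Ccna2 met in 14.

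Many members lay near the threshold. Exactly 3 markers were detected in 28 wells, 4 in 18, 5 in 14, 6 in 5, 7 in 11 and all 8 in 8 wells. The 28 wells just inside the rule had a median of 10 marker UMIs and 349 CPM, and the 87 wells just outside it, with 2 markers, had a median of 5 UMIs and 151.5 CPM. The 8 wells with all markers had a median of 205 marker UMIs (60 to 773) and a median depth of 96700 UMIs. Tnnt2 UMIs ranged upward from 104 inside the rule, with a median of 448, and 35 wells with 3 or more markers fell short on Tnnt2, the highest at 95. On the collagen condition, 14 cycling wells had a ratio of cardiomyocyte to collagen UMIs of 5 to 10, 19 had a ratio of 10 to 20, and 16 wells with 3 or more markers lay just outside at 2 to 5.

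Cycling wells were deeper than no-marker wells. Their median was 48980 UMIs (10462 to 215562) against 21872, with 33382 in wells of 1 or 2 markers, and their median number of genes was 4594 against 2850. After each well was thinned to 10000 UMIs, cycling wells still showed a median of 2632 genes against 2137 in the 297 no-marker wells deep enough, 42 being left out. Mitochondrial UMIs made up a median of 16.7% in cycling and 22.1% in no-marker wells. Deeper wells detect more markers at the same content, so depth and cycling were not separated by the rule itself. None of the 5 negative control wells had 3 or more markers, but at a median of 145 UMIs they were too shallow for a comparison. No doublet caller was run.

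The label was checked against markers that the rule did not use. Sarcomere genes outside the rule summed to 29120 CPM in cycling wells and 42960 CPM in no-marker wells, so the members carried abundant cardiomyocyte RNA. They also carried fibroblast RNA: 12 fibroblast markers outside the rule (Dcn, Lum, Pdgfra, Tcf21, Postn, Mgp, Fn1, Vim, Sparc, Thy1, Ddr2, Loxl1) summed to 5379 CPM in cycling and 2582 CPM in no-marker wells, with a median per well of 4957 CPM (650 to 16770) against 1378 (71.0 to 59750). Collagen UMIs of the rule had a median of 21.5 (0 to 486) in cycling wells and of 1 (0 to 778) in no-marker wells, and were absent from 3 of 84 and 125 of 339 wells. Of the other cell types, endothelial markers were at 0 in 24 cycling and 258 no-marker wells, macrophage markers in 30 and 246, smooth muscle and pericyte markers in 9 and 149, and epicardial markers in 72 and 318. The smooth muscle and pericyte list summed to 559 CPM in cycling and 150 CPM in no-marker wells. Of its 6 members, Tagln (455 and 137 CPM) and the pericyte receptor Pdgfrb (96.8 and 12.2 CPM) carried most of the sum, while Myh11 and Rgs5 were listed at 0 over all 84 cycling wells.

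The amount of cycling marker per collagen was set beside that of wells richer in fibroblast RNA. Cycling wells held 96.95 marker UMIs per 100 collagen UMIs. Wells of the same names with at least as many collagen as cardiomyocyte UMIs and 3 or more markers (76 wells) held 36.0, and the 569 wells of the fibroblast library with 3 or more markers held 30.4. Among cycling wells with a cardiomyocyte to collagen ratio over 20 (51 wells) the value was 207, and with a ratio over 100 (27 wells) it was 540, at 691 marker CPM and 128 collagen CPM. The 3 cycling wells without a collagen UMI held between 5 and 77 marker UMIs with a median of 7, 527 CPM together. The rule requires markers in every member and limits collagen, so these ratios are a description, and the part of fibroblast RNA in the marker values was not tested.

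**Figure D1:**
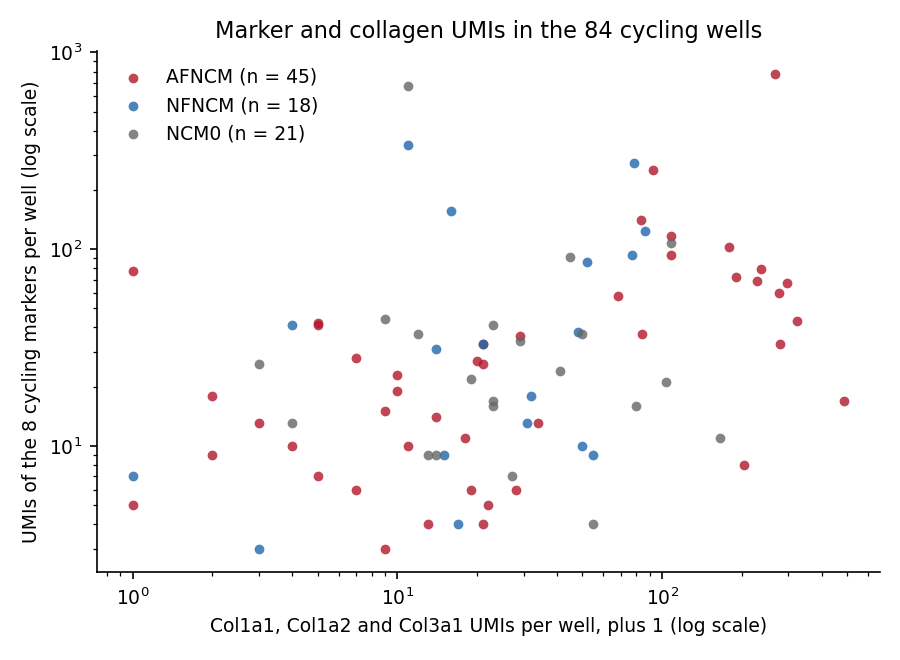
Each point is 1 of the 84 cycling wells, with collagen UMIs plus 1 on the x axis and UMIs of the 8 markers on the y axis, both on log scales, coloured by co-culture (AFNCM 45 wells, NFNCM 18, NCM0 21). Wells span 0 to 486 collagen UMIs and 3 to 773 marker UMIs, and the well with 77 marker UMIs at the left edge holds no collagen UMI.

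The share of eligible wells that were cycling was compared between co-cultures, a quantity the rule did not use. Cycling wells were 10 of 70 eligible wells in AFNCM1 (14.3%, exact 95% binomial interval 7.07 to 24.7), 17 of 104 in AFNCM2 (16.3%, 9.82 to 24.9) and 18 of 96 in AFNCM3 (18.75%, 11.5 to 28.0). In the NF co-culture they were 8 of 87 in NFNCM1 (9.20%, 4.05 to 17.3), 4 of 107 in NFNCM2 (3.74%, 1.03 to 9.30) and 6 of 107 in NFNCM3 (5.61%, 2.09 to 11.8). All 3 AFNCM names lay above all 3 NFNCM names. The mean share was 16.5% ± 2.23 (SD, n = 3 well names) with AF and 6.18% ± 2.77 (n = 3) with NF, a difference of 10.3 percentage points with p = 0.1 in a two-sided exact permutation test over well names, the smallest p that 3 against 3 allows. The difference therefore exceeded the spread between names within each co-culture but could not pass a threshold of 0.05. The NCM0 names fell far apart, with 2 of 64 (3.13%, 0.381 to 10.8) in NCM0_1 and 19 of 103 (18.4%, 11.5 to 27.3) in NCM0_2. NCM0_1 thus lay below the NF mean and NCM0_2 above the AF mean, so these 2 names differed by more than the co-cultures did. The intervals cover counting error only.

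Depth moved with the co-culture. Median depth of eligible wells was 32359, 32090 and 42802 UMIs in AFNCM1 to AFNCM3 and 27318, 27646 and 26683 in NFNCM1 to NFNCM3. Eligible wells of at least 10000 UMIs were thinned to that depth. They numbered 58, 97 and 90 in AFNCM1 to AFNCM3 and 75, 102 and 96 in NFNCM1 to NFNCM3, and shallower wells were left out. Their share of cycling wells was 9.27% ± 0.907 with AF and 3.82% ± 1.71 with NF, a difference of 5.45 points (n = 3 names each, exact permutation p = 0.1). At a collagen ratio over 100 the share was 6 of 57, 5 of 67 and 7 of 58 with AF and 1 of 73, 0 of 95 and 1 of 94 with NF, a mean of 10.02% against 0.811% (exact permutation p = 0.1, n = 3 names each). In both settings the names of the co-cultures again did not overlap.

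The amount of marker RNA was compared beside the number of wells. Over all eligible wells, the 8 markers summed to 293, 295 and 178 CPM in AFNCM1 to AFNCM3 and to 210, 94.3 and 188 CPM in NFNCM1 to NFNCM3, and the ranges overlapped. The means were 255 ± 67.05 and 164 ± 61.4 CPM, and the difference did not exceed the spread (exact permutation p = 0.3, n = 3 names each). After thinning to 10000 UMIs the names no longer overlapped, with 179 to 279 CPM with AF and 86.3 to 163.5 CPM with NF (means 230 and 124 CPM, exact permutation p = 0.1, n = 3 names each). At a collagen ratio over 100 they did not overlap either (means 93.5 and 37.7 CPM, exact permutation p = 0.1, n = 3 names each), whereas at a ratio over 20 the means were 108.5 and 80.8 CPM (exact permutation p = 0.7, n = 3 names each). Within the cycling wells alone the order was the opposite, with 1132, 912 and 586.5 CPM in the AFNCM names and 1264, 1551 and 1391 CPM in the NFNCM names. These levels are a description, since the rule chose the wells on them.

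**Figure D2:**
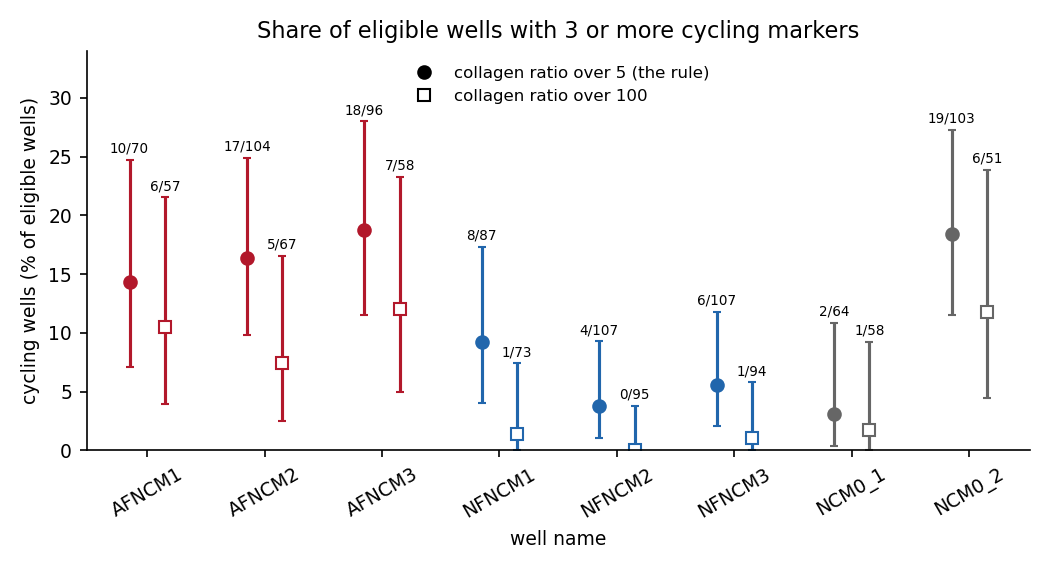
The percent of eligible wells with 3 or more cycling markers is plotted for each well name, with exact 95% binomial intervals and the counts above, under the rule (filled circles) and at a collagen ratio over 100 (open squares). AFNCM names lie between 14.3% and 18.75% and NFNCM names between 3.74% and 9.20% under the rule, while NCM0_1 and NCM0_2 lie at 3.13% and 18.4%.

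Cycling and no-marker wells were then set side by side, as a description without a test, over the 6 names with at least 5 wells of both classes (AFNCM1, AFNCM2, AFNCM3, NFNCM1, NFNCM3 and NCM0_2). Of 2849 genes with a mean of at least 50 CPM, 331 (11.6%) were higher in cycling wells in all 6 names and 193 (6.77%) were lower in all 6, and the median log2 difference over all these genes was 0.12.

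Tyms, which makes thymidylate for DNA synthesis, stood at 109, 154 and 189 CPM in the cycling wells of AFNCM1 to AFNCM3, 138 and 102 in NFNCM1 and NFNCM3, and 75.8 in NCM0_2. In the no-marker wells of the same names it stood at 13.9, 42.8, 66.3, 16.2, 11.7 and 23.9 CPM. The lowest cycling value was thus above the highest no-marker value, and the median log2 difference was 2.36. Birc5, the survivin subunit of the chromosomal passenger complex, reached 146, 142 and 152 CPM in AFNCM1 to AFNCM3, 371 and 484 in NFNCM1 and NFNCM3, and 102.5 in NCM0_2. In no-marker wells it reached 3.26, 38.3, 70.1, 11.0, 11.1 and 13.4 CPM, again without overlap, and it was detected in 72.6% of cycling and 16.8% of no-marker wells. Its median log2 difference was 3.90 (1.11 to 5.33). Hmmr was detected in 42.9% of cycling and 5.01% of no-marker wells (median log2 difference 4.32, 3.45 to 5.02). Cenpe, the kinetochore motor, was detected in 47.6% and 6.49% (4.62), although in NCM0_2 its levels were 88.2 and 81.3 CPM and hardly differed.

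The other named genes above no-marker wells were Pclaf, the PCNA clamp-associated factor (median log2 difference 3.87), the chromatin protein Hmgb2 (3.03), the condensin subunit Smc2 (2.76), the histone gene Hist1h2ap (2.40), Basp1 (2.62) and Lox (2.75). Lox, the collagen crosslinking enzyme, and Basp1 are not cell cycle genes. Hist1h2ap belongs to a family of near-identical genes, so its value is uncertain. At a collagen ratio over 20, Lox had a median log2 difference of -0.12, Birc5 of 2.55, Tyms of 1.74 and Hmmr of 2.33. At a ratio over 100 the differences were 1.31, 2.86, 3.05 and 0.82. In both settings 4 names were left (AFNCM1, AFNCM2, AFNCM3 and NCM0_2), because no NFNCM name kept 5 cycling wells.

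Named genes below no-marker wells were Asb11 (-1.57), Akap6, an anchor for protein kinase A at the nuclear envelope (-1.30), Rassf3 (-1.28), Pet100, an assembly factor of cytochrome c oxidase (-1.21), the kinase Dmpk (-1.20), Fgl2 (-1.14), Pdk2, which restrains pyruvate dehydrogenase (-1.13), the complement regulator Cd59a (-1.13), Dysf, which repairs the sarcolemma (-1.08), and the peroxisomal enzyme Phyh (-1.06). Cd59a was the most abundant of them, at 267, 387.5 and 166.5 CPM in the cycling wells of AFNCM1 to AFNCM3, 292.5 and 306 in NFNCM1 and NFNCM3, and 324.5 in NCM0_2. Its no-marker values were 698.5, 579, 610, 630, 680 and 383 CPM. All 10 genes had a negative median at collagen ratios over 20 and over 100, but the common sign was lost for most. At a ratio over 100 Akap6 (-0.13) and Dmpk (-0.38) were lower in 2 of 4 names, Pet100, Pdk2, Cd59a and Dysf in 3 of 4, and Asb11, Rassf3, Fgl2 and Phyh in 4 of 4. At a ratio over 20 Dmpk stood at -0.19, Phyh at -0.27 and Akap6 at -0.30, each lower in 3 of 4 names.

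Genes were next grouped by role in the cell cycle and in the heart. Members with a mean of at least 2 CPM were described. The 11.6% of genes higher and 6.77% lower in all 6 names cover only genes with a mean of at least 50 CPM. These shares are therefore not a matched background for lists with less abundant members. In G1/S and DNA replication, 12 of 26 members were higher in all 6 names and none lower, with a median log2 difference of 2.04 and a summed level of 1003 CPM in cycling and 245 CPM in no-marker wells. By name the sum ran from 798 to 1202 CPM in cycling wells of the 6 names and from 197 to 399 CPM in their no-marker wells, without overlap. Beside Tyms, the members highest in cycling wells were the ribonucleotide reductase subunit Rrm1 (105 and 33.9 CPM), the G1/S cyclin Ccne2 (78.4 and 8.59 CPM) and the sliding clamp Pcna (76.6 and 30.8 CPM).

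In G2 and mitosis, 18 of 29 members outside the rule were higher in all 6 names, with a median log2 difference of 3.21 and a sum of 1761 and 468 CPM. The sum ran from 1435 to 2256 CPM in cycling wells and from 346 to 655 CPM in no-marker wells of these names. Pttg1, the securin that inhibits separase, was the most abundant member but differed little (286 and 260 CPM, higher in 4 of 6 names). The condensin subunit Smc4 stood at 249 and 60.5 CPM. In cytokinesis and the chromosomal passenger complex, 4 of 14 members were higher in all 6 names (median 1.56). The nonmuscle myosin Myh9 stood at 139 and 57.1 CPM, the passenger subunit Cdca8 at 80.1 CPM with a median log2 difference of 3.67, and the contractile ring anchor Anln at 48.3 and 2.67 CPM. Genes of chromatin and tubulin turnover were higher in 7 of 12, among them Tubb5 (434 and 207 CPM) and Ran (310 and 160 CPM).

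Regulators differed less. Of 9 G1 cyclins, CDKs and Rb family genes, 2 were higher in all 6 names (median 0.55), namely Cdk4 (157.5 and 61.7 CPM) and Ccnd3 (11.2 and 2.07 CPM). Ccnd2, the most abundant D-type cyclin here, stood at 397 and 311 CPM. Of 6 CDK inhibitors none was higher or lower in all names, and Cdkn1a (p21), which arrests cells in G1, was the most abundant at 640 CPM in cycling and 448 CPM in no-marker wells (higher in 4 of 6 names). Among MuvB, B-Myb, FoxM1 and E2F genes, E2f7 was higher in all 6 names (16.7 and 0.395 CPM) and Foxm1 in 5 (14.3 and 0.691 CPM), with a median of 0.20 over 9 members. Of 13 regulators of cardiomyocyte proliferation the median was -0.47, and 1 was lower in all 6 names, Gata4 (50.5 and 87.4 CPM).

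Genes of contraction and of mitochondrial energy were lower. Sarcomere genes outside the rule were lower in all 6 names in 7 of 18 (median -0.56), with Ttn at 2435 and 4257 CPM and Myl3 at 2169 and 3744 CPM. Calcium handling genes were lower in 4 of 8 (median -0.51), with the SERCA pump Atp2a2 at 2221 and 3371 CPM and its inhibitor Pln at 1528 and 2787 CPM. Oxidative phosphorylation genes were lower in 9 of 14 (median -0.51), with Cox8b at 2394 and 4989 CPM, and fatty acid oxidation genes in 7 of 19 (median -0.53), with Fabp3 at 270 and 485 CPM. The 5 cardiomyocyte genes of the rule were lower as well, as was the share of mitochondrial UMIs. No glycolysis gene was lower or higher in all 6 names (12 members, median -0.25), nor any of 7 immediate early genes (median 0.04) or 4 natriuretic peptide and stress genes (median -0.42). Ankrd1, the titin-binding stress protein, stood at 3965 and 6295 CPM, and Nppa, a fetal natriuretic peptide, at 659 and 369 CPM without a common direction.

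Fibroblast markers outside the rule moved with these lists. Of 12, 5 were higher in all 6 names and none lower (median 1.29), including Vim at 2102 and 744 CPM and Fn1 at 663 and 168 CPM, and Tagln of the smooth muscle list stood at 455 and 137 CPM. Because CPM values share 1 total, the same lists were read again at higher collagen ratios. At ratios over 20 and over 100 the median for G1/S was 1.30 and 1.17, for G2 and mitosis 1.46 and 1.61, and for cytokinesis 0.76 and 1.42. Over the same wells the median for fibroblast markers was 0.74 and 0.45, for chromatin and tubulin 0.31 and 0.01, for sarcomere genes -0.09 and -0.18, for calcium handling 0.07 and -0.06, for oxidative phosphorylation -0.18 and -0.37, and for fatty acid oxidation -0.27 and -0.40. The 3 cell cycle lists thus kept a median above 0.7, and the medians for sarcomere and calcium genes lay within 0.2 of 0. Both settings rest on 4 names, AFNCM1, AFNCM2, AFNCM3 and NCM0_2, without an NFNCM name. Under the rule, sarcomere sums in cycling and no-marker wells were 21170 and 46820 CPM in NFNCM1 and 24620 and 45140 CPM in NFNCM3. These gaps were wider than in any of the 4 kept names. A change with the ratio thus cannot be told from the loss of the NF names. The part of fibroblast RNA in the differences under the rule was not tested.

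**Figure D3:**
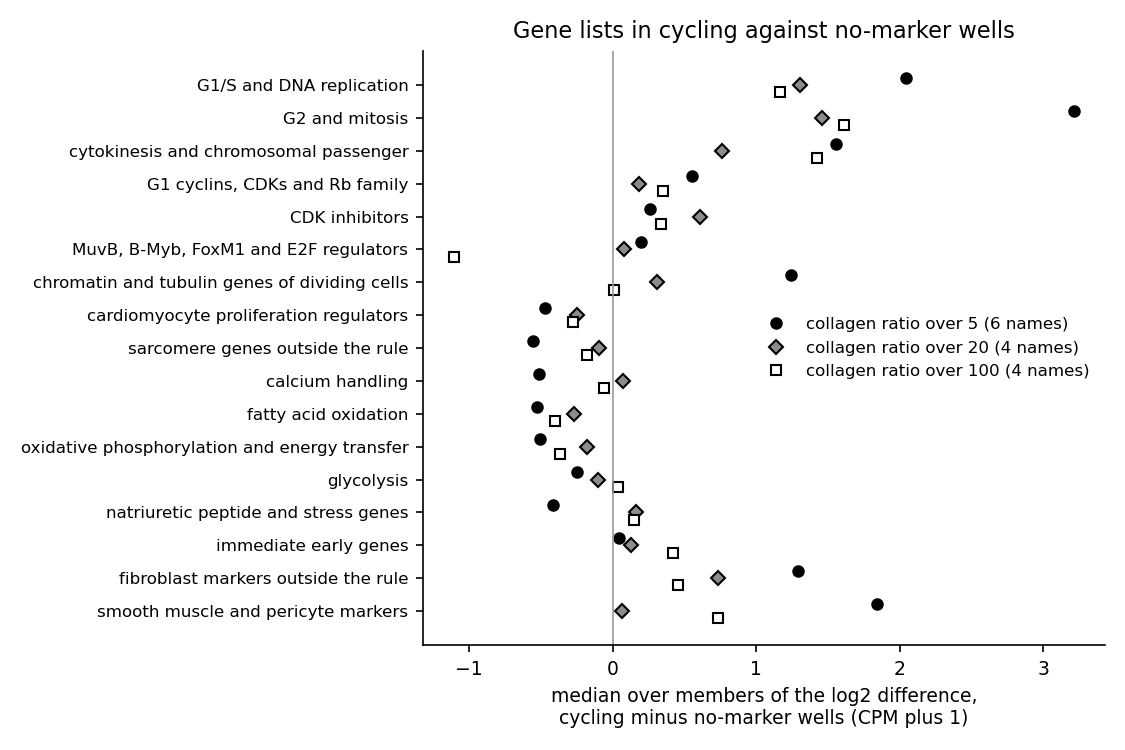
The median over the members of each gene list of the log2 difference between cycling and no-marker wells is plotted on the x axis, for the rule (filled circles) and for collagen ratios over 20 (grey diamonds) and over 100 (open squares). G1/S lies at 2.04, 1.30 and 1.17 and G2 and mitosis at 3.21, 1.46 and 1.61, while sarcomere genes lie at -0.56, -0.09 and -0.18. The higher ratios rest on AFNCM1, AFNCM2, AFNCM3 and NCM0_2, without an NFNCM name.

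Members were compared by the G1/S and the G2 and mitosis lists. More UMIs of the G2 and mitosis list than of the G1/S list were found in 62 of 84 wells, fewer in 21 and an equal number in 1. The count was 17 of 17 in AFNCM2, 6 of 10 in AFNCM1, 13 of 18 in AFNCM3, 5 of 8 in NFNCM1, 3 of 4 in NFNCM2, 5 of 6 in NFNCM3 and 12 of 19 in NCM0_2. At least 5 genes of the G2 and mitosis list were detected in 70 wells and at least 5 of the G1/S list in 62, so most members held transcripts of both. These counts read which list was more abundant and not a measured phase, and no-marker wells also held more of the G2 and mitosis list (468 CPM) than of the G1/S list (245 CPM).

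Levels outside the rule rose with the number of markers detected. From wells with 0, 1 and 2 markers to wells with 3, 4 or 5, and 6 to 8 markers, the G1/S list went from 246, 297 and 312 CPM to 524, 968 and 1380 CPM. The G2 and mitosis list went from 469, 594 and 628 CPM to 1013, 1140 and 2884 CPM. Wells with 6 to 8 markers (24 wells) also had the lowest sarcomere level, 20950 CPM against 42960 CPM with no marker, and the highest level of fibroblast markers, 6768 CPM against 2582 CPM, at a median depth of 77040 UMIs. Wells with 1 marker (228 wells) were close to those with none in fibroblast (2468 CPM) and sarcomere RNA (41740 CPM). This order is a description, since the markers sorted the wells.

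Gene expression within cycling cardiomyocytes was compared between the co-cultures, a contrast that the rule did not use. UMI sums over the cycling wells of AFNCM1, AFNCM2 and AFNCM3 were tested against those of NFNCM1 and NFNCM3 in edgeR (quasi-likelihood test, Benjamini-Hochberg adjustment over 8164 genes), and NFNCM2, with 4 cycling wells, is given as a value beside the test. Of 8164 genes, 13 (0.159%) were called at an adjusted p under 0.05, 10 higher with AF (0.122%) and 3 lower (0.0367%), and 810 had an unadjusted p under 0.05.

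Ifit1, an interferon-induced protein that binds viral RNA, stood at 115, 331 and 130 CPM in AFNCM1 to AFNCM3 and at 0 in both tested NFNCM names, with 7.56 CPM in NFNCM2. It was at least 54.6-fold higher with AF, set against a floor of 3 UMIs over the tested NFNCM wells (edgeR adjusted p = 0.0294). Rtp4, another interferon-induced gene, stood at 74.0, 289 and 210 CPM against 0 in all NFNCM names, at least 53.7-fold higher (edgeR adjusted p = 0.0389). Xaf1, an interferon-induced proapoptotic factor, stood at 109, 210 and 188 CPM against 0 and 0, with 15.1 CPM in NFNCM2, at least 46.7-fold higher (edgeR adjusted p = 0.0120). For these genes every AFNCM name lay above every NFNCM name, a separation of the tested names that 15.1% of all genes showed in this direction and 11.7% in the other. Ifitm3, a membrane barrier to viruses, was expressed on both sides, at 1519, 1943 and 2466 CPM against 307 and 476.5 CPM, with 643 CPM in NFNCM2, a log2 difference of 2.40 (SE 0.32, edgeR adjusted p = 0.0224).

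The other called genes higher with AF were Lcn2, Clu, Dcn, Cxcl5, Lgals3bp and Cp. Lcn2, the siderophore-binding lipocalin, stood at 186, 163 and 168 CPM against 0 in all NFNCM names, at least 46.7-fold higher (edgeR adjusted p = 0.00890). Clu, the chaperone clusterin, stood at 1666, 2041 and 2010 CPM against 310 and 406 CPM, with 37.8 CPM in NFNCM2 (log2 difference 2.47, SE 0.27, edgeR adjusted p = 0.00890). The proteoglycan Dcn, a fibroblast product, stood at 639, 284 and 516 CPM against 9.83 and 24.3 CPM, with 106 CPM in NFNCM2 (4.85, SE 0.54, edgeR adjusted p = 0.00890). None of these overlapped between the co-cultures.

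The chemokine Cxcl5 stood at 1278, 357 and 717 CPM against 2.46 and 17.0 CPM, with 295 CPM in NFNCM2 (6.34, SE 0.75, edgeR adjusted p = 0.0100). Lgals3bp, a secreted glycoprotein, stood at 171, 120 and 244 CPM against 2.46 and 2.43 CPM, which rest on 2 UMIs, with 22.7 CPM in NFNCM2 (edgeR adjusted p = 0.0100). Cp, the copper carrier ceruloplasmin, stood at 203, 60.4 and 149 CPM against 0 and 2.43 CPM, which rest on 1 UMI (edgeR adjusted p = 0.0441). In NFNCM2, however, Cp stood at 151 CPM, inside the range of the AFNCM names.

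Of the 3 genes lower with AF, Anxa1, a calcium-dependent membrane protein, stood at 262, 245 and 436 CPM against 2016 and 1157 CPM, with 719 CPM in NFNCM2 (log2 difference -2.29, SE 0.35, edgeR adjusted p = 0.0425). The actin bundler Pls3 stood at 68.5, 53.9 and 42.5 CPM against 334 and 294 CPM, with 90.8 CPM in NFNCM2 (-2.47, SE 0.37, edgeR adjusted p = 0.0389). Tas1r1, a taste receptor subunit, stood at 1.10, 0 and 0 CPM against 113 and 48.6 CPM (edgeR adjusted p = 0.0474), but its 67 UMIs came from 3 of 18 NFNCM wells. The rule for naming took the 5 genes with the largest rise, with Anxa1 and Pls3, and the other called genes were added after their values were seen.

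**Figure D4:**
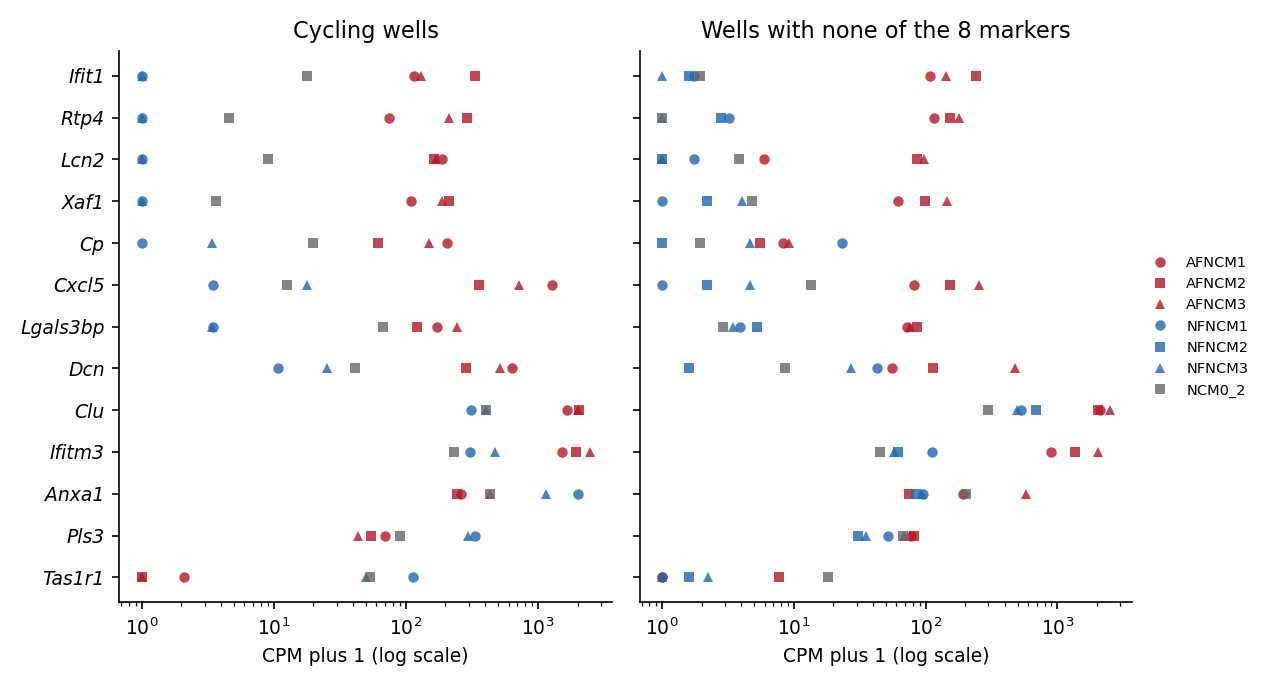
CPM plus 1 on a log scale is plotted for the 13 called genes in cycling wells (left) and in no-marker wells (right), with 1 symbol per well name, red for AFNCM, blue for NFNCM and grey for NCM0_2. NFNCM2 is drawn only at the right because it had 4 cycling wells, and in cycling wells Ifit1 lies between 115 and 331 CPM in AFNCM names and at 0 in NFNCM1 and NFNCM3.

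Fibroblast content was set beside these calls. Within the cycling test the 3 collagens of the rule had a median log2 difference of 1.54 (3 of 3 above 0) and the 12 other fibroblast markers of -0.12 (7 of 12 below 0), and Dcn was the only one called. In the fibroblast library, the median over AF names against that over NF names was 810 and 79.7 CPM for Dcn, 1293 and 36.65 for Cxcl5, 207 and 1.57 for Lcn2, 385 and 43.1 for Clu, 62.5 and 0.725 for Ifit1, and 90.2 and 4.25 for Rtp4, while Anxa1 (1191 and 1262) and Pls3 (203 and 299) were closer. In cycling wells with a collagen ratio over 20 (26 with AF, 8 with NF), pooled and without a test, Ifit1 stood at 119 and 0 CPM, Rtp4 at 176 and 0, Xaf1 at 180 and 0, Clu at 2521 and 544, Dcn at 257 and 6.11, Cxcl5 at 153 and 12.2, Anxa1 at 168 and 647, and Pls3 at 59.0 and 210. For the other called genes, the level over all AF cycling wells pooled is given in brackets. In the same wells at a ratio over 20, Ifitm3 stood at 1161 and 273 CPM (1972) and Lgals3bp at 88.5 and 2.04 (174.5). Lcn2 stood at 57.5 and 0 CPM (171), Cp at 37.1 and 0 (133) and Tas1r1 at 0.757 and 0 (0.348). Clu was higher in these wells than in AF wells dominated by collagen (464 CPM), whereas Cxcl5 (2164 CPM) and Dcn (1047 CPM) were lower. The part of fibroblast RNA in the calls was not tested.

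In no-marker wells of the same names, 40 of 8567 genes were called (0.467%), 39 higher (0.455%) and 1 lower (0.0117%), the last being Cox6a2, a subunit of cytochrome c oxidase (log2 difference -0.96, SE 0.18, edgeR adjusted p = 0.0407). Endothelial markers moved with this contrast in no-marker wells. All 6 tested members of the list were above 0 and 2 were called (Cdh5 and Egfl7), and the list summed to 349, 150 and 177 CPM in AFNCM1 to AFNCM3 and to 12.5, 4.83 and 14.1 CPM in NFNCM1 to NFNCM3. Cdh5, the cadherin of endothelial junctions, had 268 UMIs in 9 of 96 AFNCM wells, and the part of endothelial RNA in the calls was not tested. In cycling wells the list overlapped, at 124, 170 and 227 CPM against 44.3, 60.5 and 326 CPM, and none of its 5 tested members was called. Both classes called 7 genes, 53.8% of the 13 and 17.5% of the 40. Of the 12 cycling calls tested in no-marker wells, 9 had the same sign. Ifit1 stood at 106, 240 and 141 CPM against 0.736 and 0 CPM there (edgeR adjusted p = 0.000750), where 2 UMIs were found over all 165 NFNCM no-marker wells. Clu stood at 2096, 2030 and 2502 CPM against 527 and 491.5 CPM. Anxa1 did not keep its direction, at 190, 74.4 and 581 CPM against 94.2 and 92.7 CPM, nor did Pls3, at 76.7, 80.0 and 67.1 against 50.75 and 34.4 CPM. Cp, called higher with AF in cycling wells, overlapped in no-marker wells, at 7.34, 4.51 and 8.20 CPM against 22.1 and 3.68 CPM. Over all genes of the no-marker test the names were separated with AF higher in 15.5% and with AF lower in 9.98%.

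Whether the effect of the co-culture differed between cycling and no-marker wells was tested by the interaction in edgeR. None of 9620 genes was called (0%), the lowest adjusted p being 0.0777, and 744 genes had an unadjusted p under 0.05, while DESeq2 called 87. On simulated data the comparison between co-cultures in cycling wells recovered 43 of 62 genes changed 16-fold, 3 of 66 changed 4-fold and 0 of 67 changed 2-fold, and the interaction was not simulated.

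None of the cell cycle lists held a called gene between the co-cultures in cycling or in no-marker wells. Hist1h2ap, whose value is uncertain, was called higher with AF in no-marker wells. It stood there at 60.4, 127 and 191.5 CPM in AFNCM1 to AFNCM3 against 19.1 and 15.3 CPM in NFNCM1 and NFNCM3. In cycling wells, the median log2 difference was -0.42 for G1/S (14 of 22 tested members below 0), -0.26 for G2 and mitosis (14 of 24) and -1.08 for cytokinesis and the passenger complex (11 of 12), against 0.07 over all genes tested. The cytokinesis list summed to 623, 643 and 552 CPM in AFNCM1 to AFNCM3 and to 1222, 998 and 1315 CPM in NFNCM1 to NFNCM3, without overlap. Sarcomere genes had a median of 0.57 (15 of 18 above 0), calcium handling genes 0.71 (8 of 8), glycolysis genes 0.40 (9 of 9) and fatty acid oxidation genes 0.38 (15 of 18), and none was called. In no-marker wells the same contrast had medians of the other sign for sarcomere genes (-0.28, 13 of 17 below 0), calcium handling genes (-0.23, 7 of 8 below) and fatty acid oxidation genes (-0.07, 11 of 19 below), and of 0.64 for G1/S (9 of 10 above 0), 0.63 for G2 and mitosis (7 of 9) and 0.95 for cytokinesis (4 of 6), against 0.03 over all genes tested there. Sarcomere genes in cycling wells summed to 26660, 32590 and 30690 CPM in the AFNCM names and to 21170, 18770 and 24620 CPM in the NFNCM names.

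The interferon response was followed further with a list of 30 genes chosen after these results were seen. Promoters of 2 called members are shown because the interferon-stimulated response element (ISRE), bound by STAT and IRF factors, is in capitals in both, searched on both strands as GAAA, any 2 bases and GAAA again, in the same RefSeq windows (GRCm38.p6).
Ifit1 promoter, chr19:34640639-34640938, plus strand: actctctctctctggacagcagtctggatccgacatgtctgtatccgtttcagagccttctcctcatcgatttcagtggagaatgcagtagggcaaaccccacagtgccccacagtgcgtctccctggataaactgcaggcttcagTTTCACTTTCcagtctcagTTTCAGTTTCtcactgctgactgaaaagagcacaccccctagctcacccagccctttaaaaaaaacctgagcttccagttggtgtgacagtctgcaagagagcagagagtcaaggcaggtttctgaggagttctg
Ifitm3 promoter, chr7:141010695-141010994, minus strand: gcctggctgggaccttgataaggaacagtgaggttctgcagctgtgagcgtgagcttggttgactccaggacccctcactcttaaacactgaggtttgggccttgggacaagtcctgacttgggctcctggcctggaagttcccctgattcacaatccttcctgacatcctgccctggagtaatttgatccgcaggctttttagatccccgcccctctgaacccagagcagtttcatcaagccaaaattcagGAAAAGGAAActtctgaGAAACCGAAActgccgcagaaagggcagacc

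Ifit1 held the element at -104 and -85 on the other strand, and Ifitm3 at 2 and 19 from its annotated start. The letters were present in 14 of the 23 list members with a promoter, in 2 of 6 genes called higher in cycling wells, in 0 of 7 cycling markers, and in 3.49% of all promoters.

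Summed over the 30 genes, cycling wells stood at 3777, 5006 and 5588 CPM in AFNCM1 to AFNCM3, at 1077, 1982 and 1169 CPM in NFNCM1 to NFNCM3, and at 868 and 785 CPM in NCM0_1 and NCM0_2. No-marker wells stood at 2317, 3681 and 4598 CPM, at 332, 250 and 296 CPM, and at 377 and 175 CPM in the same order. AFNCM names did not overlap with any other name in either class, and within each of the 8 names the sum was higher in cycling than in no-marker wells. In the cycling comparison 22 members were tested, 22 were higher with AF and 5 were called, against 0.122% of all genes called higher. In no-marker wells 21 were tested and 11 called, against 0.455%. Wells of the fibroblast library stood at 3321 to 9991 CPM in 4 AF names and at 1736 to 1837 CPM in 4 NF names, so the sum was higher with AF in both cell libraries. The list was drawn from these data and is no independent evidence of its direction.

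The 4 bulk libraries are independent of the rule and give the same genes over all cells sorted as imCMs. Col1a1 stood at 6722 and 7729 CPM in imCM-NF and at 4972 and 3805 CPM in imCM-AF. In cycling wells, where UMIs were counted, it stood at 327 CPM with NF and 685 CPM with AF. In bulk, fewer cycling cells, less RNA per cycling cell and a different part of dividing fibroblasts cannot be told apart. Total counts were 9278909 and 12088577 in imCM-NF and 10766124 and 11790263 in imCM-AF. Calls in bulk (edgeR quasi-likelihood test) needed both an adjusted p below 0.05 and a log2 difference beyond 0.58 in either direction, which 6.15% of 14041 genes met as higher and 4.99% as lower with AF.

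All 8 cycling markers had a negative log2 difference and 1 was called. Ccnb1 stood at 25.6 and 36.1 CPM in imCM-NF and at 19.1 and 19.0 CPM in imCM-AF (log2 difference -0.75, SE 0.14, edgeR adjusted p = 0.000905). Cdk1 stood at 77.6 and 95.9 against 66.5 and 53.7 CPM (-0.58, SE 0.11, edgeR adjusted p = 0.00134), just short of the fold threshold, and Prc1 at 68.1 and 80.4 against 55.7 and 51.1 CPM (-0.52, SE 0.10, edgeR adjusted p = 0.00112). In 6 of the 8 both imCM-AF libraries lay below both imCM-NF libraries, against 28.5% of all genes, and Mki67 and Kif11 overlapped.

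More genes of mitosis than of DNA replication passed the test. Of 31 genes of G2 and mitosis outside the rule, 10 were called lower and none higher, 29 had a negative difference, and the median was -0.47. Cdc20, which activates the anaphase-promoting complex, stood at 59.1 and 78.3 CPM in imCM-NF and at 39.6 and 29.4 CPM in imCM-AF (-1.04, SE 0.13, edgeR adjusted p = 2.64e-05). The mitotic kinesin Kif2c (-0.84, SE 0.13) and the polo kinase Plk1 (-0.83, SE 0.13) fell as well, and the other called genes were Ccnb2, Ube2c, Aurka, Nusap1, Cks2, Cdc25c and Cenpa. Smc4 (81.6 and 103 against 101 and 96.5 CPM) and Pttg1 (49.0 and 36.3 against 51.9 and 49.4 CPM) did not pass, although both imCM-AF values of Pttg1 lay above both imCM-NF values, as in 37.4% of all genes. In cytokinesis and the passenger complex 3 of 14 were called lower (median -0.38), among them Racgap1 (-0.60, SE 0.11) and Cdca8 (-0.67, SE 0.13). In G1/S 1 of 28 was called, the replication factor Gins2 (-0.66, SE 0.14), and the median was -0.23. Pcna overlapped, at 57.2 and 72.3 against 63.3 and 59.9 CPM.

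Among regulators, the inhibitor Cdkn2a (p16 and ARF) stood at 3.45 and 3.73 CPM in imCM-NF and at 15.2 and 16.1 CPM in imCM-AF (2.07, SE 0.19, edgeR adjusted p = 7.59e-07), whereas it stood at 0.589 CPM over the 84 cycling wells and 0.592 CPM over the no-marker wells. Cdkn1c (-0.99, SE 0.19) and Cdkn2c (-0.65, SE 0.19) were called lower, as was Cdk4 (240 and 301 against 197 and 172 CPM, -0.59, SE 0.11). No gene of the MuvB, B-Myb, FoxM1 and E2F list was called, Foxm1 standing at -0.55 (SE 0.12) and Mybl2 at -0.55 (SE 0.17). Fibroblast markers moved with these genes: 6 of 12 outside the rule were called lower with AF (median -0.69). So were 2 of 3 collagens of the rule (median -0.72) and 5 of 9 endothelial markers (median -0.67). The part of these cells in the bulk differences was not tested.

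The genes that set cycling wells apart were looked up in bulk. Of the 331 genes higher in cycling wells in all 6 names, 270 were tested in bulk, where 39 (14.4%) were called lower and 2 (0.741%) higher with AF, with a median of -0.26. Of the 193 lower genes, 168 were tested, 17 (10.1%) were called higher and none lower, with a median of 0.14. Over all 2490 described genes tested in bulk, 3.78% were called lower and 3.45% higher. Of the 13 genes called within cycling wells, 12 were matched in bulk, 5 called in the same direction and 0 in the other. Not called were Clu (log2 difference 0.48), Cxcl5 (0.24), Ifitm3 (0.03), Pls3 (-0.29), Dcn (-0.25), Cp (-0.39) and Anxa1 (0.45). Dcn, Cp and Anxa1 had the other sign than in cycling wells. Of the no-marker calls, 35 were matched, 14 called in the same direction and 9 in the other.

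**Figure D5:**
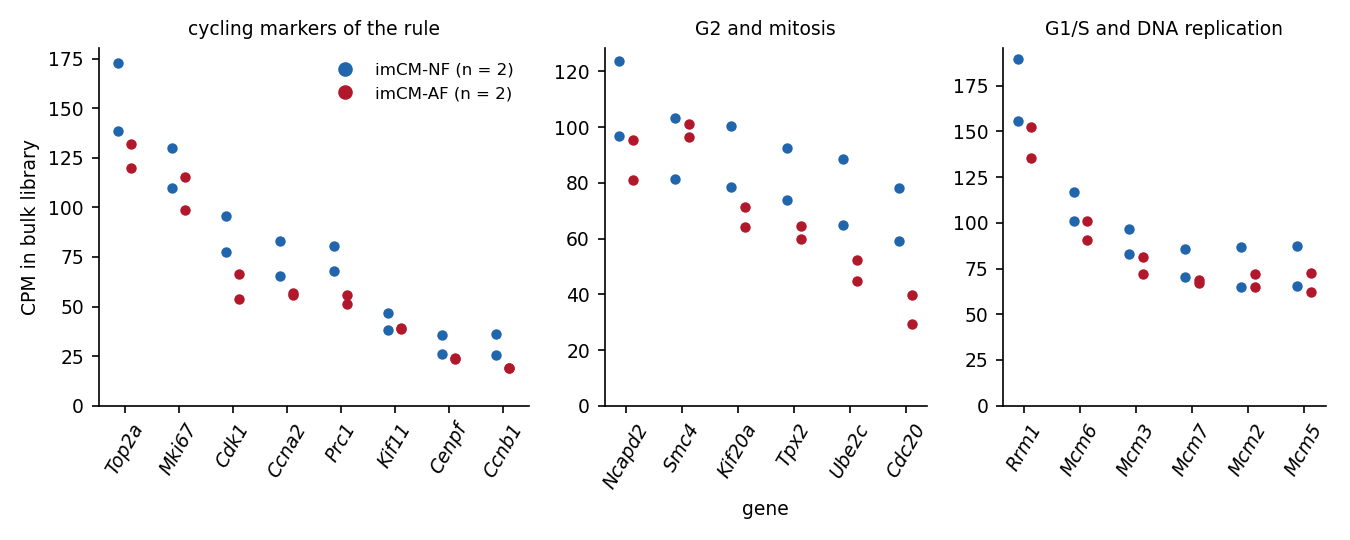
CPM in each bulk library is plotted for the 8 cycling markers and for the 6 most abundant genes of the G2 and mitosis and the G1/S lists, with imCM-NF in blue and imCM-AF in red (n = 2 libraries each). Cdc20 lies at 59.1 and 78.3 CPM in imCM-NF and at 39.6 and 29.4 CPM in imCM-AF, while Mki67, Kif11 and Smc4 overlap.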

How the data were processed

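Single cells of 2 nanowell libraries and 4 bulk libraries were used. The authors deposited counts of UMIs for each well together with a table of well names, after barcode and UMI filtering, STAR 2.5.2b alignment to mm10 and featureCounts assignment to Ensembl genes. For bulk the authors deposited raw counts per gene, aligned to mm10 with Subread 1.4.6-p1 per the submitters' processing notes and counted on RefSeq genes. The study's methods name a different version of subread, run in R, for bulk. Of 27179 bulk identifiers, 25275 matched a symbol. Whether strand was used is not stated, so overlapping genes are uncertain. The 33 mitochondrial genes and the spike-ins were left out of CPM, and 269 cell barcodes occur in both single-cell libraries.

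Members and gene lists were chosen with earlier results of these data known. UMIs were summed per well name and class, and names with at least 5 wells were tested in edgeR 4.0.16 (R 4.3.3; TMM, filterByExpr, quasi-likelihood test, Benjamini-Hochberg threshold 0.05), with DESeq2 1.42.0 and limma 3.58.1 as alternatives. Bulk genes needed a CPM over 1 in 2 libraries, because the gene lengths for the RPKM filter of the study were not used here. Well shares were tested by exact permutation over names and carry 95% Clopper-Pearson intervals. Class differences used log2(CPM + 1). Named genes were the 10 largest and 10 smallest class differences with 1 sign in all 6 names, the 5 largest called rises and falls of a test, and the most abundant or called members of each list. Bulk genes with the largest changes are not reported here. The tests of genes between co-cultures in cycling wells, no-marker wells and bulk were tried on simulated data with 200 changed genes. The interaction and the test of shares were not simulated. Whether numbers in the labels pair samples is not stated. Deviations of same-numbered bulk libraries correlated at -0.13, and those of well names between -0.04 and 0.004. So few libraries and names a group cannot decide it. Promoters came from RefSeq (GRCm38.p6).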

Additional observations from a re-analysis of the deposited data

Results flagged for a closer look

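Cycling markers were detected outside the 84 wells too. In the fibroblast library, 569 of 1053 wells other than controls (54.04%) had 3 or more of the 8 markers, at a median depth of 35450 UMIs. Among the 671 wells of the 8 names that failed a condition on Tnnt2 or collagen, 171 (25.48%) had 3 or more markers, at a median of 5915 UMIs. In each library 0 of 5 negative control wells had 3 or more markers. Their median depth was 231 UMIs in the fibroblast and 145 in the cardiomyocyte library, too shallow for a comparison. Among positive controls, 1 of 5 wells had 3 or more markers in the fibroblast library and 0 of 5 in the cardiomyocyte library. Both percentages come from wells that the comparisons did not use, and their source was not tested.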

How the results depend on the processing

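The difference in the share of cycling wells kept its direction under every alternative run, from 5.45 points after thinning to 17.2 points with at least 2 markers, and from 9.06 to 11.8 points with 1 well name left out, where the smallest p possible is 0.2. The 13 genes called within cycling wells rest on few names: leaving out 1 name gave 0 to 16 calls, with 0 without AFNCM3 (508 genes at an unadjusted p under 0.05), 2 without AFNCM2 and 3 without NFNCM1, of which 1 was shared. Without a filter 140 genes were called and by DESeq2 93, each holding all 13. In no-marker wells the 40 calls became 188 without a filter, 152 by DESeq2 and 13 to 40 with 1 name left out (13 without NFNCM1, 15 without NFNCM3). The interaction gave 97 calls without a filter, 87 by DESeq2, 5 after thinning and 0 to 20 with 1 name left out, among them 20 without AFNCM1. The bulk count of 1564 fell to 565 at a log2 threshold of 1 and ranged from 879 to 1929 with 1 library left out, the lowest being 879 for imCM-NF replicate 2 and 988 for imCM-AF replicate 2. With the number as replicate block, a pairing that the labels do not state, 25 genes were called in cycling wells (12 shared) and 115 in no-marker wells. In bulk 1430 were called, and 1668 with the crossed pairing. Alternatives at a collagen ratio over 100, and those of the class description over 20, were chosen after seeing the data. Over 100 they left 187 genes higher (6.62%) and 191 lower (6.76%) in all names left, and over 20 they left 189 (6.70%) and 189 (6.70%). The excess of higher genes under the rule (11.6% against 6.77%) was thus gone, and Lox turned to -0.12 over 20. These settings kept no NFNCM name, so the ratio and the loss of the NF names were not separated. Under the rule, leaving out 1 name gave 368 to 501 genes higher in all names left, the highest without NCM0_2. The causes were not tested. Tests of genes at a collagen ratio over 20 were not run, because no NFNCM name kept 5 cycling wells. On simulated data the cycling comparison recovered 43 of 62 genes changed 16-fold and 3 of 66 changed 4-fold.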

Other observations

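Across readouts, the share of cycling wells was higher with AF (16.5% against 6.18% of eligible wells), while all 8 cycling markers had a negative log2 difference with AF in bulk. The 2 readouts differ in the cells they hold and were not tested against each other. Wells of NCM0_1 and NCM0_2, whose group is not stated, differed from each other in the share (3.13% and 18.4%) by more than any 2 names of 1 co-culture.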
